A study of Mus musculus with 13 samples.

Results

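Transcript levels of 10 basement membrane genes were followed in the interscapular brown adipose tissue (iBAT) of mice on a high-fat diet. The genes were Col4a1, Col4a2, Col15a1, Col18a1, Lama2, Lama4, Lamb1, Lamc1, Nid1 and Hspg2, and they are 10 of the 42416 gene identifiers counted. They were grouped as structural components of one matrix, with a higher level of Col15a1 in the iFAXLKO libraries already known, so the values of Col15a1 between the groups are a description and are not offered as a test. Bulk RNA sequencing gave 8 iFAXLKO libraries and 5 WT libraries, each from a separate iBAT sample. All mice of both groups carried loxP sites in both copies of Axl, which encodes a receptor tyrosine kinase, and all received tamoxifen every 3 weeks while kept at room temperature with free access to food. The iFAXLKO mice were Cre positive, with the tamoxifen-inducible Adipoq-CreERT2 transgene built from a bacterial artificial chromosome, so recombination was directed to adipocytes, while the WT mice were Cre negative. Per the study, tamoxifen was begun in young adult mice, the floxed line had been bred with C57Bl6 mice, and the sequenced animals were female littermates. The exact age at sampling of these libraries is not given in the sources used here.

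A basement membrane is the thin sheet of matrix around each adipocyte, under the endothelium of blood vessels and around muscle fibres and Schwann cells. Laminin trimers of an alpha, a beta and a gamma chain bind to cell receptors and form one layer, type IV collagen forms a covalently linked network, and nidogen and perlecan connect the layers. The multiplexin collagens XV and XVIII sit at the border between the basement membrane and the fibrillar matrix. In fat, adipocytes, fibroblasts, pericytes and endothelial cells can all contribute these proteins. In bulk tissue, fewer cells of a type and less RNA per cell cannot be told apart.

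The depth of the libraries was between 22.44 and 32.6 M counts. The 10 genes took between 0.1256% and 0.2667% of them. Axl had 33.1 ± 6.16 CPM (SD, n = 8) in the libraries labelled iFAXLKO and 27.8 ± 3.82 CPM in WT (SD, n = 5), where CPM are counts per M of scaled library size. The targeted gene was thus not lower where the label calls for it (log2 fold change 0.25, SE 0.13, adjusted p of 0.699 by edgeR's quasi-likelihood test), and the direction of every difference given here rests on the labels. These are whole-tissue counts, whereas recombination was directed to adipocytes. The study assayed AXL protein by western blot in the mature fraction of inguinal fat, another depot and measure. Why Axl was not lower here was not tested. All 8 brown adipocyte markers were detected in the libraries, with a summed level of 15241 to 20092 CPM in the libraries labelled iFAXLKO and 16944 to 25838 CPM in WT, led by Fabp4 at a mean of 7699 CPM. WT replicate 2 stood apart from the other WT libraries. It had the highest brown adipocyte sum and the lowest endothelial, pericyte and smooth muscle sums of the 13 libraries, the last pair at 625.6 CPM and 576.6 CPM. The brown adipocyte markers did not all go 1 way. Without this library the WT mean rose from 38.4 to 41.0 CPM for Ppargc1a and from 23.4 to 25.2 CPM for Prdm16. It fell for each other marker of the list. Xist was lowest in WT replicate 2 at 247.0 CPM, against a mean of 511.1 CPM in the other WT libraries. What sets this library apart was not tested. Values of the 10 genes and of gene lists that it moves by more than 1.5 times are also given without it. The Y-linked transcripts Ddx3y, Kdm5d, Eif2s3y and Uty had 0 counts in all 13 libraries.

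Promoter sequences from RefSeq (GRCm38.p6) matched 8 of the 10 genes, while Lama4 and Lamc1 were not matched. Windows of 250 bases before the RefSeq start were searched on both strands for a GC box, spelled GGGCGG, for the letters of the CCAAT box, and for a TATA box, spelled TATAAA. A GC box lay in the windows of 5 of the 8 genes and a CCAAT box in those of 5, beside 32.7% and 33.8% of all 32851 windows. No window of the 8 genes held TATAAA, which 12.4% of all windows held. These are letter matches and not sites of binding.

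The following stretches are shown to set Col15a1 and Lama2, the genes with the highest fitted differences between the groups, beside the linkers Hspg2 and Nid1, whose windows hold the searched motifs. Each is written on the strand of its gene and covers the part of its window outside annotated exons, and capitals mark GC and CCAAT boxes on either strand. The Col15a1 stretch is chr4:47207762-47208011, just upstream of the RefSeq start. That of Lama2 is chr10:27616943-27617192, which lies within the annotated span of Lama2 but outside its exons. The others are chr4:137468553-137468768 for Hspg2 and chr13:13437352-13437550 for Nid1, both ending at the base before the annotated gene.
Col15a1: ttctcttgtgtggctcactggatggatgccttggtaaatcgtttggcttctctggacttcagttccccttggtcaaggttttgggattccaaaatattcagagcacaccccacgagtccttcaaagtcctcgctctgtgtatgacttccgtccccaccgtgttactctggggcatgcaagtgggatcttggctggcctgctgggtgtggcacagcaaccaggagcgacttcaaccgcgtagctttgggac
Lama2: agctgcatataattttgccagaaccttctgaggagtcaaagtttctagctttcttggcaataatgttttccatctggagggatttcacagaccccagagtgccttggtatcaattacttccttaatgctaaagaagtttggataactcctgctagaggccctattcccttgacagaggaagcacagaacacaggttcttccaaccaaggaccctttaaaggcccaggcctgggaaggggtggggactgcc
Hspg2: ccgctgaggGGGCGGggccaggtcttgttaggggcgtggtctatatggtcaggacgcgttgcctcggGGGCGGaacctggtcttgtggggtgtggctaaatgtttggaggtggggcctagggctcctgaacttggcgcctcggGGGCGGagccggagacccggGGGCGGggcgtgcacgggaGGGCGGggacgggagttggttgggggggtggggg
Nid1: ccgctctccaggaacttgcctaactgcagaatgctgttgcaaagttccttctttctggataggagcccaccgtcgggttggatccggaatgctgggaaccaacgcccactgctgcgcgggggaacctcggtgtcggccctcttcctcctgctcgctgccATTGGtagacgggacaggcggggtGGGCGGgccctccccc
The Hspg2 stretch holds 5 GC boxes and a GC content of 70.8%. The Nid1 stretch holds 1 GC box and 1 CCAAT box, the latter read on the other strand. The stretches of Col15a1 and Lama2 hold none of the searched motifs, with a GC content of 53.6% and 47.2%, beside a median of 52.4% over all windows. Nid1, whose stretch holds both motifs, had the next highest fitted log2 fold change after Col15a1 and Lama2, at 0.31. Lama4, at 0.27, had no window. Whether these letters go with the differences between the groups was not tested.

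Col4a1 and Col4a2 encode the chains of the most widespread type IV collagen trimer, in which alpha-1 chains join an alpha-2 chain. Col4a1 (ENSMUSG00000031502) spans chr8:11198423-11312826 on the minus strand of GRCm38 with 54 exon blocks, and Col4a2 (ENSMUSG00000031503) spans chr8:11312805-11449287 on the plus strand with 48. The genes lie head to head, and their annotated starts overlap by 22 bases, chr8:11312805-11312826, all within exons. This overlap is shown because it is the point from which both genes are read in opposite directions, and it holds a GC box, given in capitals on the plus strand.
Col4a1 and Col4a2 shared start: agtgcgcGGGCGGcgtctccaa
A CCAAT box ends 28 bases before the Col4a2 start, inside the Col4a1 gene. The shared bases are 0.29% of the Col4a1 exons and 0.33% of those of Col4a2. Since the strand setting of the counting is not given in the sources used here, reads from these bases cannot be assigned to one gene.

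Type IV collagen transcripts were the most abundant of the 10. Col4a1 had 673.6, 446.7, 693.0, 644.4 and 658.4 CPM in WT replicates 1 to 5, and between 576.8 and 800.0 CPM with a median of 663.8 CPM in the libraries labelled iFAXLKO. WT replicate 2 was the lowest of all 13 libraries, and the groups otherwise overlapped. The mean was 670.4 ± 67.4 CPM (SD, n = 8) in the libraries labelled iFAXLKO and 623.2 ± 100.3 CPM (SD, n = 5) in WT, or 667.3 ± 20.9 CPM without WT replicate 2. The fitted log2 fold change was 0.11 (SE 0.11), and 0.01 without that library.

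Col4a2 had 492.6, 375.3, 505.0, 465.3 and 486.8 CPM in WT replicates 1 to 5, and 428.2 to 548.2 CPM with a median of 475.3 CPM in the libraries labelled iFAXLKO. Again WT replicate 2 lay below every other library, and the remaining values overlapped. The log2 fold change was 0.04 (SE 0.09), and -0.02 without WT replicate 2. In CPM per kb of merged exons, Col4a1 exceeded Col4a2 by a ratio of 1.24 ± 0.0655 (SD, n = 8) in the libraries labelled iFAXLKO. The ratio was 1.18 ± 0.0717 (SD, n = 5) in WT, and it stayed between 1.06 and 1.38 in all 13 libraries.

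The laminin alpha chains carry the domains that cell receptors bind. Lama4 (ENSMUSG00000019846, chr10:38965515-39110188, plus strand, 38 exon blocks) encodes the alpha-4 chain, typical of vessels and adipocytes. Its level was 77.3, 62.3, 73.9, 64.8 and 77.8 CPM in WT replicates 1 to 5. In the libraries labelled iFAXLKO it ranged from 64.7 to 100.5 CPM with a median of 89.2 CPM, and 6 of 8 lay above the highest WT library. The mean was 85.6 ± 13 CPM (SD, n = 8) compared with 71.2 ± 7.22 CPM in WT (SD, n = 5). The fitted difference was 0.27 on the log2 scale (SE 0.11), or 0.22 without WT replicate 2.

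Lama2 (ENSMUSG00000019899, chr10:26980036-27619758, minus strand, 66 exon blocks) encodes the alpha-2 chain, the main one around muscle fibres and Schwann cells. Levels were 10.8, 7.91, 12.5, 13.8 and 9.82 CPM in WT replicates 1 to 5, and 14.5, 18.8, 14.2, 18.3, 15.5, 14.1, 18.3 and 10.6 CPM in iFAXLKO replicates 1 to 8. Of the latter, 7 of 8 exceeded every WT library, and iFAXLKO replicate 8 fell within the WT range. The mean was 15.5 ± 2.81 CPM (SD, n = 8) compared with 11.0 ± 2.28 CPM in WT (SD, n = 5). The fitted difference was 0.50 on the log2 scale (SE 0.15), and 0.40 without WT replicate 2. Summed skeletal muscle markers, led by Acta1, ranged from 2.43 to 3971 CPM in the libraries labelled iFAXLKO and from 15.6 to 2770 CPM in WT, and with a skeletal muscle score as a covariate the value for Lama2 was 0.52. Summed Schwann cell markers, led by S100b, were 114.1 to 275.2 CPM and 214.4 to 341.7 CPM, with 5 of 6 genes at a positive log2 fold change and a median of 0.06.

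Lamb1 (ENSMUSG00000002900, chr12:31265234-31329644, plus strand, 33 exon blocks) and Lamc1 (ENSMUSG00000026478, chr1:153218922-153332786, minus strand, 28 exon blocks) encode the beta-1 and gamma-1 chains shared by most laminins of fat. Lamb1 had 162.4, 98.3, 143.6, 155.0 and 161.3 CPM in WT replicates 1 to 5, and 124.2 to 225.4 CPM with a median of 142.1 CPM in the libraries labelled iFAXLKO. The highest value, in iFAXLKO replicate 7, was well above the next at 171.7 CPM. The log2 fold change was 0.08 (SE 0.15), and it was -0.03 without WT replicate 2 and also -0.03 without iFAXLKO replicate 7. Lamc1 had 121.6, 77.6, 104.7, 112.1 and 116.2 CPM in WT replicates 1 to 5, and 104.2 to 129.5 CPM with a median of 115.3 CPM in the libraries labelled iFAXLKO, a log2 fold change of 0.12 (SE 0.10), or 0.03 without WT replicate 2. The groups overlapped for both chains, with WT replicate 2 alone below them. In CPM per kb of merged exons, Lamb1 and Lamc1 stood at a ratio of 1.10 ± 0.244 (SD, n = 8) in the libraries labelled iFAXLKO and 1.12 ± 0.042 (SD, n = 5) in WT. By the same measure, Lama4 exceeded Lama2 by a ratio of 5.66 to 11.5 across the libraries.

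Nidogen-1 binds laminin gamma-1 and collagen IV, and perlecan, the heparan sulphate proteoglycan encoded by Hspg2, binds nidogen and growth factors. Nid1 (ENSMUSG00000005397, chr13:13437551-13512269, plus strand, 20 exon blocks) had 111.9, 57.9, 100.8, 121.6 and 108.8 CPM in WT replicates 1 to 5, and 99.5 to 148.1 CPM with a median of 122.9 CPM in the libraries labelled iFAXLKO. The mean was 124.1 ± 16.9 CPM (SD, n = 8) compared with 100.2 ± 24.8 CPM in WT (SD, n = 5), or 110.8 ± 8.59 CPM without WT replicate 2. The log2 fold change of 0.31 (SE 0.15) became 0.16 without that library.

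Hspg2 (ENSMUSG00000028763, chr4:137468769-137570630, plus strand, 97 exon blocks) had 398.8, 222.7, 407.9, 450.2 and 436.4 CPM in WT replicates 1 to 5, and 377.2 to 553.1 CPM with a median of 421.4 CPM in the libraries labelled iFAXLKO. WT replicate 2 was low and iFAXLKO replicate 4 high, while the other 11 libraries of the groups overlapped. The log2 fold change was 0.17 (SE 0.15), and 0.03 without WT replicate 2.

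Collagens XV and XVIII carry glycosaminoglycan chains, and fragments of their C-terminal ends are known as restin and endostatin. Col15a1 (ENSMUSG00000028339, chr4:47208161-47313167, plus strand, 46 exon blocks) had 58.1, 79.1, 39.0, 59.6, 52.6, 55.9, 47.6 and 51.4 CPM in iFAXLKO replicates 1 to 8, and 29.8, 31.0, 29.1, 41.2 and 39.0 CPM in WT replicates 1 to 5. All 8 iFAXLKO values were above the WT mean and 7 of 8 were above the highest WT library. Only iFAXLKO replicate 3 fell into the WT range, where WT replicate 4 lay above it. The mean was 55.4 ± 11.6 CPM (SD, n = 8) compared with 34.0 ± 5.65 CPM in WT (SD, n = 5). The fitted difference was 0.70 on the log2 scale (SE 0.14), a fold of 1.63. It was 0.67 without WT replicate 2.

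Col18a1 (ENSMUSG00000001435, chr10:77052178-77166548, minus strand, 44 exon blocks) had 22.5, 20.3, 20.5, 21.5 and 23.7 CPM in WT replicates 1 to 5. In the libraries labelled iFAXLKO it spread from 18.4 to 37.6 CPM with a median of 24.1 CPM, so that both the lowest and the highest library of the series were in this group. The means of 25.5 ± 5.83 CPM (SD, n = 8) and, in WT, 21.7 ± 1.41 CPM (SD, n = 5) gave a log2 fold change of 0.24 (SE 0.13). The ratio of Col15a1 to Col18a1 in CPM per kb of merged exons was 2.44 ± 0.413 (SD, n = 8) in the libraries labelled iFAXLKO. In WT it was 1.73 ± 0.254 (SD, n = 5), and the ranges overlapped.

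**Figure D1:**
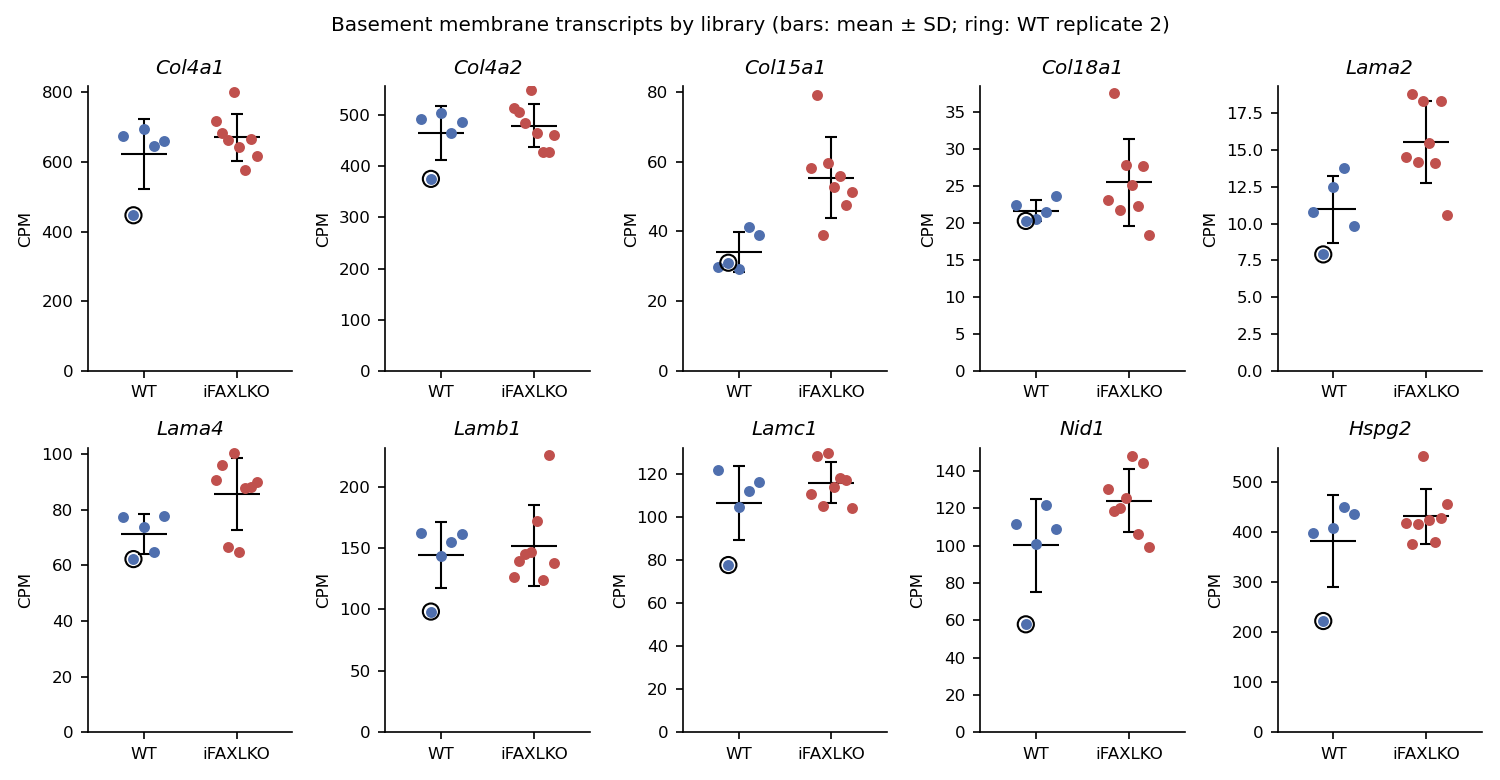
CPM of each gene in the 5 WT (blue) and 8 iFAXLKO (red) libraries, 1 point per library, with black bars for the mean ± SD and a ring around WT replicate 2. For Col15a1 and Lama2, 7 of 8 iFAXLKO points lie above every WT point, and the ringed library is the lowest of 13 for 8 of the 10 genes.

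All 10 genes had more than 1 CPM in every library and passed the filter on low counts. In the fit across 13360 genes, 0 of the 10 had an adjusted p under 0.05, beside 0.127% of all genes tested in either direction. The adjusted p was 0.103 for Col15a1 and 0.443 for Lama2, and lay between 0.621 and 0.961 for the other genes. At an unadjusted p under 0.05, 3 of the 10 were higher in the libraries labelled iFAXLKO (Col15a1, Lama2 and Lama4), beside 3.84% of all genes, and 0 were lower, beside 3.54%. With WT replicate 2 left out there were 2 higher and 0 lower, beside 5.62% and 6.33% of all genes. DESeq2 called 1 of the 10, Col15a1, with a log2 fold change of 0.71 and an adjusted p of 0.00139, beside 0.502% of all genes by that tool. Without iFAXLKO replicate 3, edgeR also called 1, again Col15a1, at 0.76 with an adjusted p of 0.0327, against a range of 0.0327 to 0.383 over the 13 fits that leave out 1 library. The share of all genes called without iFAXLKO replicate 3 is not given here. Because Col15a1 was known to be higher when the genes were chosen, nothing is read from these counts.

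The fitted value was positive for all 10 genes, with a median of 0.20 on the log2 scale, while over all genes tested the median was -0.01 and 46.4% were positive. Without WT replicate 2 the median was 0.10 and 8 of 10 were positive, and with limma-voom and sample quality weights the median was 0.10 and 9 of 10 were positive. The sum of the 10 genes was 2156 ± 172.3 CPM (SD, n = 8) in the libraries labelled iFAXLKO and 1960 ± 313.3 CPM (SD, n = 5) in WT. Among the WT libraries it was 1400 CPM in WT replicate 2 and from 2090 to 2118 CPM in the rest, inside the range of 1914 to 2510 CPM of the other group.

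The labels also number the libraries, and these were split into a lower range (4 iFAXLKO and 2 WT libraries) and an upper range (4 and 3). The numbers have several gaps of similar width, so the split is one of several possible, and nothing in the labels calls the ranges batches. Within these, the log2 fold change of Col15a1 was 0.95 and 0.51 and that of Lama2 was 0.81 and 0.28. Lama4 had 0.34 and 0.20, Nid1 0.54 and 0.17, and Col18a1 0.37 and 0.10. For Col4a1 the values were 0.35 and -0.09, for Col4a2 0.24 and -0.12, and for Hspg2 0.51 and -0.03, so the direction of these genes was not the same in both ranges. WT replicate 2 is in the lower range.

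**Figure D2:**
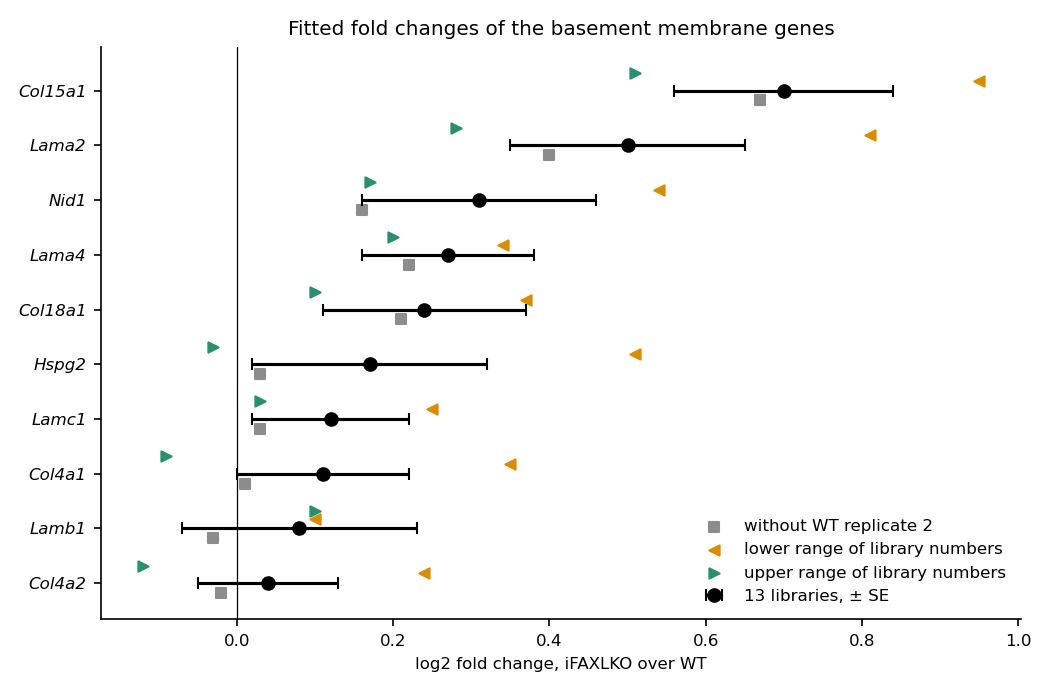
Log2 fold change of libraries labelled iFAXLKO over WT for each gene, with black points and bars for the fit of 13 libraries ± SE, grey squares for the fit without WT replicate 2 and triangles for the fits within each range of library numbers. Col15a1 and Lama2 stay above 0 in all of these, from 0.51 to 0.95 and from 0.28 to 0.81. Col18a1, Lama4, Lamc1 and Nid1 also stay above 0, while Col4a1, Col4a2, Lamb1 and Hspg2 fall on both sides of 0.

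Markers of other cells were read from the same fit, in which 0 of them passed the adjusted limit. All 8 fibroblast and progenitor markers, led by Dpt at a mean of 44.8 CPM, were higher in the libraries labelled iFAXLKO at an unadjusted p under 0.05, beside 3.84% of all genes tested, with a median log2 fold change of 0.63. With WT replicate 2 left out this held for 7 of the 8, beside 5.62% of all genes, with a median of 0.63. Their summed level was 160.9 to 274.6 CPM in the libraries labelled iFAXLKO and 105.8 to 160.9 CPM in WT. With a fibroblast score as a covariate, the log2 fold change was 0.63 for Col15a1, 0.21 for Lama2, 0.22 for Nid1, 0.26 for Lama4, -0.04 for Col18a1 and -0.20 for Lamb1. It was 0.14 for Col4a1, 0.13 for Col4a2, 0.24 for Hspg2 and 0.10 for Lamc1. The value of Col15a1 was close to the one without the covariate, with an edgeR p of 0.0148 in place of 0.000184 and an adjusted p of 1.0, while that of Lama2 was lower and those of Col4a1, Col4a2 and Hspg2 were higher. Since all 8 markers of the score were themselves higher in the libraries labelled iFAXLKO, the fit cannot separate the score from the group.

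Endothelial markers, led by Cdh5 at a mean of 218.7 CPM, summed to 750.7 to 1173 CPM in the libraries labelled iFAXLKO and 625.6 to 917.8 CPM in WT, with 7 of 8 positive and a median of 0.18, or 0.09 without WT replicate 2. An endothelial score as a covariate gave 0.68 for Col15a1, 0.43 for Lama2, 0.03 for Col4a1 and -0.02 for Col4a2. Pericyte and smooth muscle markers, led by Rgs5, summed to 718.1 to 935.9 CPM and 576.6 to 892.2 CPM, with 8 of 8 positive and a median of 0.11. Leaving out WT replicate 2, 5 of 8 were positive and the median was 0.05. Macrophage markers, led by C1qa, summed to 69.4 to 136.3 CPM and 59.7 to 84.6 CPM, with 6 of 6 positive, 5 of them at an unadjusted p under 0.05, beside 3.84% of all genes, and a median of 0.41. Leaving out WT replicate 2, the count was 3, beside 5.62%, and the median 0.37. Of the 8 brown adipocyte markers, 1 was positive, with a median of -0.07, but without WT replicate 2 the sign turned, with 5 positive and a median of 0.05. Of the 8 skeletal muscle markers, 1 was positive with a median of -0.26, and without that library 3 were, with a median of -0.05. No marker of these lists was at 0 in all libraries. The part that any of these cell types has in the results was not tested.

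To compare levels between genes, CPM were divided by the length of the merged exons in kb. By this measure Col4a1 led with a mean of 87.4 CPM per kb over the 13 libraries and Col4a2 followed with 71.6 CPM per kb, making 34.8% and 28.5% of the summed level per kb of the 10 genes. Next came Hspg2 at 28.9 CPM per kb, Nid1 at 16.6 CPM per kb, Lamb1 at 15.0 CPM per kb and Lamc1 at 13.6 CPM per kb. Col15a1 had 7.43 CPM per kb, Lama4 had 6.64 CPM per kb and Col18a1 had 3.42 CPM per kb. Lama2 was the lowest, at 0.843 CPM per kb. In the WT libraries alone, Lama4 at 5.90 ± 0.599 CPM per kb (SD, n = 5) stood before Col15a1 at 5.36 ± 0.89 CPM per kb, and Lamb1 at 14.5 CPM per kb stood just before Nid1 at 14.4 CPM per kb, whereas the libraries labelled iFAXLKO had the pooled order. Among 13349 genes with a length, Col4a1 ranked 460 and Lama2 ranked 11309.

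Each gene was compared with the next in this order by an exact permutation test over sign flips of the difference within each library, 2-sided, with p-values adjusted over 9 neighbours. The order was taken from the means of the same libraries, so the direction of each difference was not open to the test. The p-values thus describe how evenly a step held across libraries. Of the 9, 6 differed, each in the same direction in 13 of 13 libraries with an adjusted p of 0.000366, where the smallest p the test allows is 0.000244 before adjustment. The smallest of these steps was that from Col4a1 to Col4a2, 0.28 ± 0.08 on the log2 scale (SD, n = 13), and the largest was from Col18a1 to Lama2, 2.04 ± 0.26. Nid1 and Lamb1 did not differ beyond their spread (9 of 13 libraries, adjusted p of 0.0566), nor did Lamb1 and Lamc1 (9 of 13, adjusted p of 0.0566) or Col15a1 and Lama4 (9 of 13, adjusted p of 0.213).

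Gene length matters for this order. The merged exons of Lama4 are 12.07 kb long and its longest transcript 6.05 kb, and those of Lama2 are 16.34 kb and 9.61 kb. With the longest transcript in place of the merged exons, Lamb1 came before Nid1 and Lama4 before Col15a1, and all 9 neighbours differed. Col4a1, Col4a2 and Hspg2 stayed at the top and Col18a1 and Lama2 at the bottom under both lengths.

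**Figure D3:**
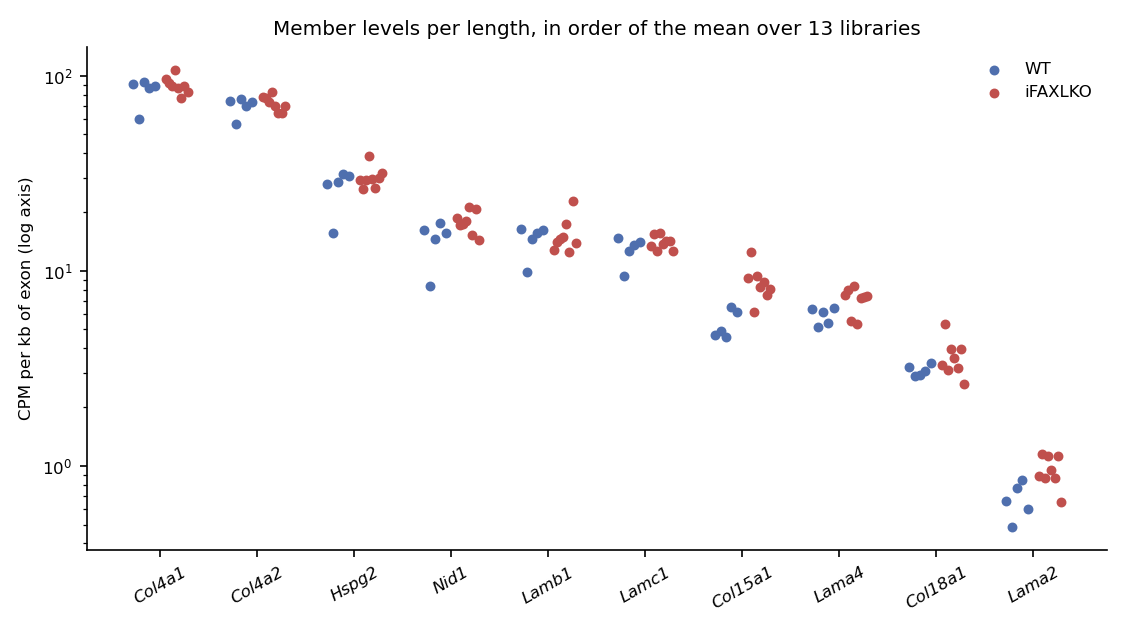
Level of each gene in CPM per kb of merged exons on a log axis, 1 point per library, WT in blue and iFAXLKO in red, ordered by the mean over 13 libraries. The means run from 87.4 CPM per kb for Col4a1 to 0.843 CPM per kb for Lama2.

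Partner chains were then compared across libraries by their deviations, that is log2 CPM minus the mean of the library's own group, so that the difference between groups does not enter. Over 6 pairs fixed by their shared trimer, network or family, p-values came from 100000 permutations and were adjusted over the 6. Col4a1 and Col4a2 had a Pearson r of 0.93 (n = 13, permutation p of 3e-05, adjusted p of 0.00018) and a Spearman rho of 0.91 (permutation p of 9e-05, adjusted p of 0.00054). The value of r was 0.82 once the 2 libraries most distant from the Col4a1 median were left out, 0.86 without WT replicate 2 and 0.85 in the libraries labelled iFAXLKO alone. Within the lower range of library numbers r was 1.00 (n = 6, exact permutation p of 0.00139, the smallest it allows). With group means taken within that range, its 2 WT libraries have equal and opposite deviations, so WT replicate 2 weighs in both. That p, and the r of every pair in the lower range, therefore cannot be read as resting on 6 independent values. In the upper range r was 0.37 (n = 7, exact permutation p of 0.394), so the relation did not pass there. Without iFAXLKO replicate 7, a library of the upper range, r over the remaining 12 was 0.99.

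The relations among laminin chains and linkers were looser. Nid1 and Lamc1 had an r of 0.75 (permutation p of 0.00717, adjusted p of 0.019) and a rho of 0.39 (permutation p of 0.19, adjusted p of 0.19). The r was 0.24 without WT replicate 2 and 0.16 once the 2 libraries most distant from the Nid1 median were left out, and thus rested on those libraries. Within the number ranges it was 0.84 (n = 6) and 0.49 (n = 7).

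Lama2 and Lamc1 had an r of 0.69 (permutation p of 0.00949, adjusted p of 0.019) and a rho of 0.57 (permutation p of 0.045, adjusted p of 0.09), and r was 0.35 without the 2 most distant libraries and 0.53 without WT replicate 2. Within the ranges r was 0.94 and 0.39. For Lama4 and Lamc1 r was 0.54 (permutation p of 0.0549, adjusted p of 0.0549) and rho was 0.65 (permutation p of 0.0186, adjusted p of 0.0558), with r of 0.67 without the 2 most distant libraries and 0.76 and -0.06 within the ranges. For Lamb1 and Lamc1 r was 0.57 (permutation p of 0.0467, adjusted p of 0.0549) and rho was 0.44 (permutation p of 0.135, adjusted p of 0.188), with r of 0.42 without the 2 most distant libraries, 0.15 without WT replicate 2, and 0.87 and 0.35 within the ranges.

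Col15a1 and Col18a1 had an r of 0.61 (permutation p of 0.0288, adjusted p of 0.0432) and a rho of 0.42 (permutation p of 0.157, adjusted p of 0.188). The r was 0.17 once the 2 libraries most distant from the Col15a1 median were left out and 0.26 without iFAXLKO replicate 2, which was the highest library for both genes, and it was 0.85 and 0.02 within the ranges. By r, 4 of the 6 pairs passed the adjusted limit, and by rho 1 did, Col4a1 with Col4a2. Without WT replicate 2 that pair alone passed by r.

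As a description of these 13 libraries, the deviations of Col4a1 had an r of 0.86 with Hspg2, 0.78 with Lamc1, 0.77 with Nid1 and 0.66 with Lama2. With Col15a1 the r was 0.18. Deviations of Col15a1 had an r of 0.61 with Col18a1, 0.46 with Lama4, 0.46 with Lamc1 and -0.10 with Lamb1. Libraries share their depth, dissection and cell makeup across all genes, and WT replicate 2 was the lowest for 8 of the 10, though not for Col15a1 or Col18a1.

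**Figure D4:**
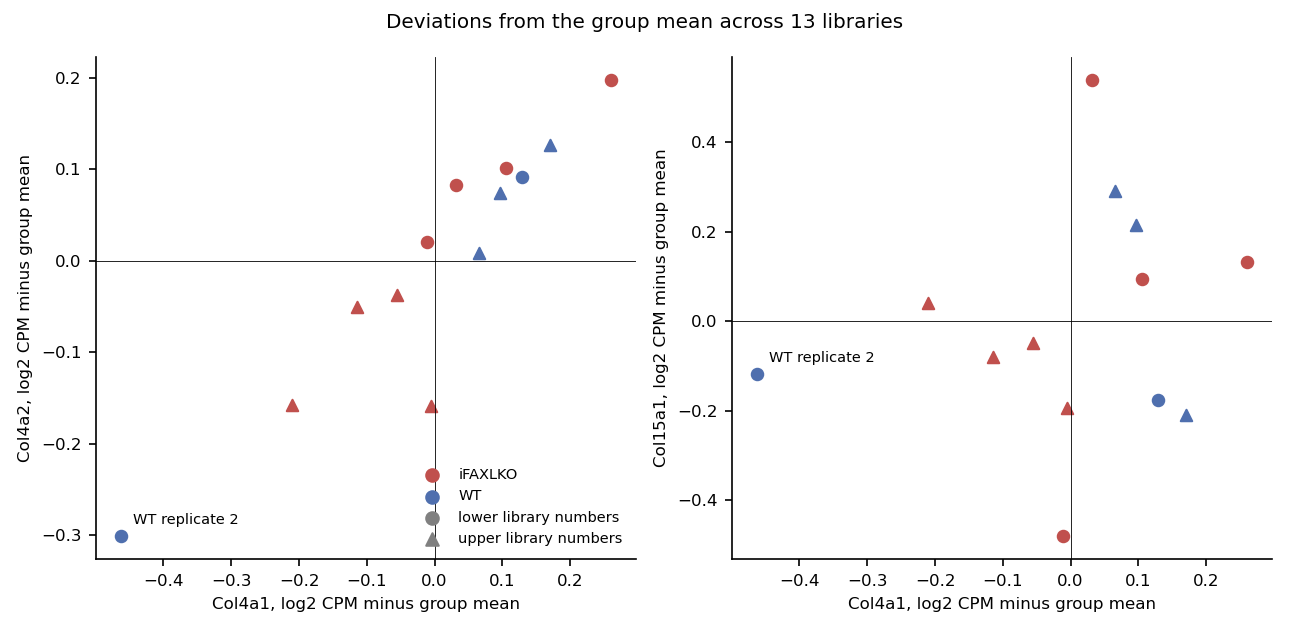
Log2 CPM minus the group mean in the 13 libraries (WT blue, iFAXLKO red, circles for the lower range of library numbers and triangles for the upper), with Col4a1 on the horizontal axis and Col4a2 (left) or Col15a1 (right) on the vertical axis. The left points lie along a line (r of 0.93) with WT replicate 2 at its lower end, and the right points do not (r of 0.18).

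Among all genes tested outside the 10, those with the deviations most like Col4a1 over the 13 libraries were Itprip (r of 0.95), Stard9 (r of 0.92), the long non-coding RNA Rian (r of 0.91), Gm43481 (r of 0.91) and Slc25a40, a mitochondrial carrier (r of 0.91). Without WT replicate 2 the r of these genes was between 0.72 and 0.88, so that library contributed to the likeness. For Col15a1 they were Bmx, a cytoplasmic tyrosine kinase (r of 0.84), D11Wsu47e (r of 0.83), Creb3l1, a membrane-bound transcription factor (r of 0.80), Peli3 (r of 0.79) and Nlrx1 (r of 0.77). Without WT replicate 2 these were between 0.78 and 0.84. They were picked from 13360 genes as the highest values, which is why no p is given, and Bmx was close to the filter at a mean of 1.0 CPM.

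Beyond the 10 genes, a list of 50 others in 6 role classes was read from the same fit, of which 43 were tested. Of these, 0 passed the adjusted limit, beside the 0.127% of all genes, and at an unadjusted p under 0.05, 11 were higher in the libraries labelled iFAXLKO and 0 were lower, beside 3.84% and 3.54% of all genes. The fitted value was positive for 34 of 43, with a median of 0.17, beside the median of -0.01 over all genes. When WT replicate 2 was left out, 8 were higher and 0 lower at an unadjusted p under 0.05, beside 5.62% and 6.33%, and 31 were positive with a median of 0.11. DESeq2 called 2, Smoc2 (log2 fold change 0.47, adjusted p of 0.00195) and Sdc2 (0.36, adjusted p of 0.00982), beside 0.502% of all genes, and without WT replicate 4 edgeR called 1, Smoc2 (0.55, adjusted p of 0.025). The share of all genes called without WT replicate 4 is not given here. Smoc2, a calcium-binding matricellular protein, and Sdc2, a heparan sulphate proteoglycan of the cell surface, are named after their values were seen.

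By class, 2 of 4 other collagen IV chains were tested and both were positive, with a median of 0.39, or 0.25 without WT replicate 2. The level of Col4a5 was 3.62 ± 0.868 CPM (SD, n = 8) and, in WT, 3.03 ± 0.701 CPM (SD, n = 5), far under Col4a1. Col4a4 had 1.76 ± 0.473 CPM and 1.21 ± 0.426 CPM. Of the other laminin chains, 5 of 6 tested were positive with a median of 0.21, or 0.11 without WT replicate 2. The most abundant per kb was Lamb2, which encodes beta-2, at 116.8 ± 14.1 CPM and 103.4 ± 11.2 CPM (log2 fold change 0.18, SE 0.10). Lama5, which encodes alpha-5, had 47.8 ± 5.5 CPM and 42.1 ± 11.6 CPM (log2 fold change 0.18, SE 0.16). Without WT replicate 2 the WT mean of Lama5 was 47.1 ± 4.11 CPM (SD), close to that of the libraries labelled iFAXLKO.

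Among linkers and associated proteins, 8 of 10 tested were positive with a median of 0.17, and without WT replicate 2, 7 of 10 with a median of 0.05. Sparc, a collagen-binding glycoprotein, was more abundant per kb than any of the 10 genes, at a mean of 254.0 CPM per kb, and had 938.7 ± 69.6 CPM in the libraries labelled iFAXLKO and 999.4 ± 87.7 CPM in WT (log2 fold change -0.09, SE 0.08). Tinagl1 had a log2 fold change of 0.06 (SE 0.17). Of the receptors, 9 of 11 tested were positive with a median of 0.15, and the leading pair, dystroglycan (Dag1) and integrin beta-1 (Itgb1), had values of 0.02 (SE 0.14) and -0.02 (SE 0.07).

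Genes for collagen folding, export and cross-linking showed 4 of 8 positive and 2 higher at an unadjusted p under 0.05, beside 3.84% of all genes, or 1 without WT replicate 2, beside 5.62%. Serpinh1, the collagen chaperone HSP47, had 368.6 ± 56.7 CPM and 402.8 ± 87.2 CPM (log2 fold change -0.13, SE 0.13). P4ha1, a prolyl hydroxylase subunit, had 77.8 ± 44.8 CPM and 112.9 ± 35.1 CPM (log2 fold change -0.54, SE 0.33), and 1 of the 8 iFAXLKO values was above the WT mean. Among proteases and inhibitors, 6 were tested with a median of 0.21. Timp3 had a log2 fold change of 0.00 (SE 0.23), and Timp2 had 45.6 ± 7.44 CPM and 32.6 ± 6.2 CPM (log2 fold change 0.48, SE 0.13, adjusted p of 0.381 by edgeR), and all 8 iFAXLKO values were above the WT mean.

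**Figure D5:**
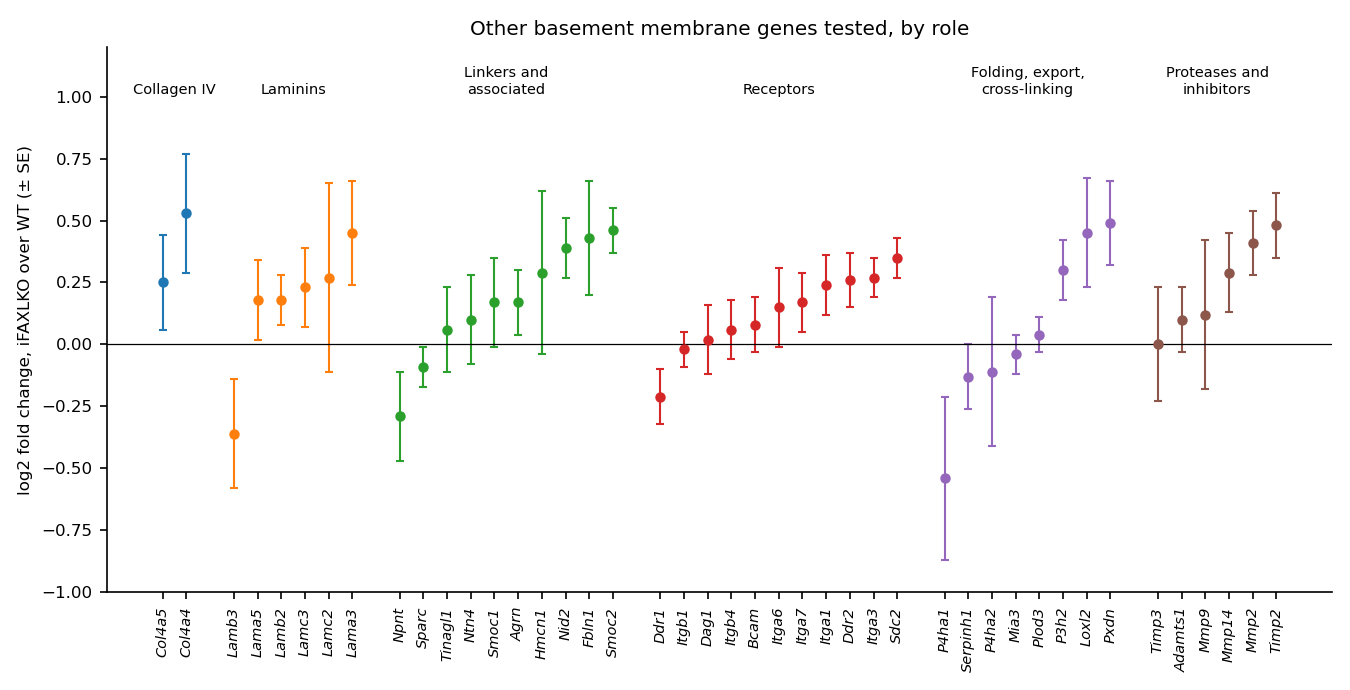
Log2 fold change of libraries labelled iFAXLKO over WT (vertical axis, points ± SE) for the 43 tested genes of the wider basement membrane list, grouped by role. Of the 43, 34 had a positive value, from collagen IV chains on the left to proteases and inhibitors on the right, and 0 passed the adjusted limit.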

How the data were processed

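Counts of reads per Ensembl gene were deposited by the authors for each of 13 iBAT libraries, as raw whole numbers. The submitters' processing notes name bcl2fastq 2.20, fastp 0.20.0, STAR 2.7.4a, DESeq2 and the build GRCm38.p6, whereas the methods of the study name Trim Galore and hisat2. They also name depletion of ribosomal RNA, where the labels give polyA RNA, and which of these applied to the deposited counts was not settled. How reads were counted, and whether by strand, is not given in the sources used here. The study counts its animals as n, and the libraries were taken as 1 per mouse.

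GENCODE M21 (GRCm38) gave positions and lengths. Genes with over 1 CPM in at least 5 libraries were kept (13360). Counts were scaled by TMM and tested with edgeR 4.0.16 (quasi-likelihood F test, robust, 2-sided) under R 4.3.3, with Benjamini-Hochberg adjustment over all genes tested and a limit of 0.05. SE is the log2 fold change over the square root of F. Log2 CPM used a prior count of 2. The lowest count of any of the 10 genes in a library was 182. Within groups, 38 pairs of libraries were compared, with a chi-square of at least 18.41 per degree of freedom, so each counted as 1 replicate. The tests were checked on simulated data with known changes. Alternatives were DESeq2 1.42.0, limma-voom (limma 3.58.1) with quality weights, upper quartile or RLE factors, library sizes leaving out abundant genes, other filters, non-robust dispersions, a replicate block, covariates, number ranges and leaving out each library.

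The 10 genes, the other lists and the tests were chosen with earlier results of these data known. Genes named are the 10 and Axl, the 2 most abundant tested genes per kb in each of 6 classes with any past the limit, the 5 genes most like Col15a1 and like Col4a1, and the leading gene of each marker list. Smoc2, Sdc2, Ppargc1a, Prdm16, Xist and the Y-linked transcripts are outside this rule.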

Additional observations from a re-analysis of the deposited data

Results flagged for a closer look

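For each of the 10 genes and each group, the gap between the most extreme library and its nearest neighbour was compared with the range of the group by Dixon's ratio. Of 20 such groups 4 were past the 95% critical value, and the 4 lay in 3 libraries. Chance gives about 1 in 20 for independent groups. These are not independent, since WT replicate 2 was the lowest library for 8 of the 10 genes, so nothing is read from the count. Col4a1 in WT replicate 2 was at 446.7 CPM, with the next WT library at 644.4 CPM. Hspg2 in the same library was at 222.7 CPM, with the next at 398.8 CPM. Hspg2 in iFAXLKO replicate 4 was at 553.1 CPM, above the next library of that group at 456.3 CPM. Lamb1 in iFAXLKO replicate 7 was at 225.4 CPM, above the next at 171.7 CPM.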

How the results depend on the processing

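Of the 10 genes, 0 passed the adjusted limit in edgeR, and the count was 1 with DESeq2 and 0 to 1 when 1 library was left out. For the wider list the count of 0 became 2 with DESeq2 and 0 to 1 when 1 library was left out. The shares of all genes past the adjusted limit in the fits that leave out 1 library are not given here. The median log2 fold change of the 10 genes was 0.36 and 0.10 in the lower and upper range of library numbers and 0.10 to 0.25 when 1 library was left out. Of the 6 relations, 4 passed by r, against 6 with CPM without TMM factors, 6 with a skeletal muscle score removed, 2 in the libraries labelled iFAXLKO alone, 1 without the 2 most distant libraries, 2 and 0 within the lower and upper number ranges, and 1 to 5 when 1 library was left out. The count in the lower range is not read further, since its 2 WT libraries have mirrored deviations. For the order of levels, 6 of 9 neighbours differed, 6 to 7 when 1 library was left out and 0 in the WT libraries alone, where the smallest possible p is 0.0625.

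Directions that turned were those of Lamb1 (-0.07 with limma-voom, -0.20 with a fibroblast score, and -0.03 without iFAXLKO replicate 7 or WT replicate 2, in a range of -0.03 to 0.12 over the libraries left out), Col18a1 (-0.04 with a fibroblast score), Col4a2 (-0.02 with an endothelial score, -0.12 in the upper number range and -0.02 without WT replicate 2, in a range of -0.02 to 0.09), Col4a1 (-0.09) and Hspg2 (-0.03), both in the upper range, and the correlation of Lama4 with Lamc1 (-0.06, upper range). The cause was not tested. Col15a1, Lama2, Lama4, Lamc1 and Nid1 were positive in each of the 29 fits.

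Replicate numbers are shared by the groups but nothing ties them to an animal or a day. The deviations of same-numbered libraries had correlations of 0.392, 0.422, 0.188, 0.181 and -0.614, and 3 of 5 WT libraries correlated best with their own number. With the number as a replicate block (10 libraries), 0 of the 10 genes passed, the median was 0.22 and Col15a1 had a log2 fold change of 0.74 (adjusted p of 0.2 by edgeR).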
